A study of Mus musculus with 30 samples.

Results

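The sclera of 6-week-old mice was compared with that of 2-week-old mice. The comparison took 12 of the 30 arrays of a study of postnatal growth of the mouse sclera, namely all 6 arrays titled for week 6 and all 6 titled for week 2, and it covered every transcript cluster that carries a single gene symbol. The animals were Balb/cJ mice, an inbred albino strain, taken from 1 family and given no treatment. Each array held the RNA of 1 whole sclera from 1 mouse, ground while frozen and hybridized to the Mouse Gene 1.0 ST array, which carries probes along the length of each transcript. Separate animals were used for each week, so no mouse was followed over time, and the labels do not give the sex of any animal.

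The sclera is the white outer coat of the eye, built by fibroblasts that lay down lamellae of fibrillar collagen bound by small leucine-rich proteoglycans, with elastic fibres between them. It is covered by conjunctiva and Tenon's capsule on the outside, carries the tendons of the extraocular muscles, and borders the choroid and the retinal pigment epithelium on the inside. A dissected sclera can therefore hold RNA of muscle, pigment cells, retina, vessels and surface epithelium beside that of its own fibroblasts. In such bulk tissue, fewer cells of a type and less RNA per cell cannot be told apart.

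The deposited log2 signals were compared as they stood. The median signal of an array lay between 6.18 and 6.24 in week 2 and between 6.18 and 6.37 in week 6, and correlations between arrays of 1 week had a median of 0.970 in week 2 and 0.980 in week 6. Type I collagen, the defining product of scleral fibroblasts, was bright throughout. Col1a1 lay between 11.72 and 12.85 in week 2 and between 11.26 and 12.45 in week 6. Surface epithelium was present as well, with Krt5, its basal keratin, between 12.33 and 12.93 in week 2 and between 12.02 and 12.52 in week 6.

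Some arrays were arithmetically tied to others of their week. The signal of week 2 replicate 4 equalled the mean of the other 5 week 2 arrays in each of the 35556 transcript clusters, with a largest difference of 8e-05. The mean of week 6 replicates 4 and 6 likewise equalled the mean of the other 4 week 6 arrays, with a largest difference of 7.5e-05. For any other single array of these weeks the same difference had an SD of 0.256 to 0.393. The 3 tied arrays leave each week's mean as it is and add little information on its spread, and the 30 arrays held 23 independent deviations where the fit counts 25 residual degrees of freedom. The part of the scan-date correction named in the methods in these ties was not tested. Counts are therefore given also without the 3 tied arrays.

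Genes of the sex chromosomes showed the largest differences of all named genes. Xist, the RNA that silences an X chromosome in females, lay at 12.66 on average in week 2 replicates 1 to 3 and at 7.01 in replicates 5 and 6. In week 6 it lay at 7.36 in replicates 1 and 2 and at 1.70 in replicates 3 and 5. The gap between the high and the low arrays was thus 5.65 in week 2 and 5.65 in week 6, while the difference of week 6 from week 2 was -5.30 between the high arrays and -5.31 between the low ones. The Y-linked Eif2s3y, a translation initiation factor, showed the mirror image, with a gap of 4.09 in week 6 and week 6 levels 5.11 and 5.01 above those of week 2. The Y-linked Uty and Kdm5d, which encode histone demethylase family proteins, had gaps of 3.50 and 3.08 and of 2.35 and 2.33, and they too lay higher in week 6 at either level. The tied arrays lay between the high and the low level of their week in both genes. The fitted log2 difference was -5.87 for Xist (SE 1.21, adjusted p = 2.42e-04) and 5.48 for Eif2s3y (SE 0.96, adjusted p = 3.39e-05). In Xist, Eif2s3y, Uty and Kdm5d the difference between the weeks thus had 1 direction at either level. Over all 739 X-linked genes the shares called were near those of all genes, with 34 higher (4.60% beside 3.55%) and 1 lower (0.135% beside 0.306%). Of 9 Y-linked genes 4 were higher. A shift of whole weeks and a change with age cannot be told apart in the other genes, and its part in the results that follow was not tested.

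**Figure D1:**
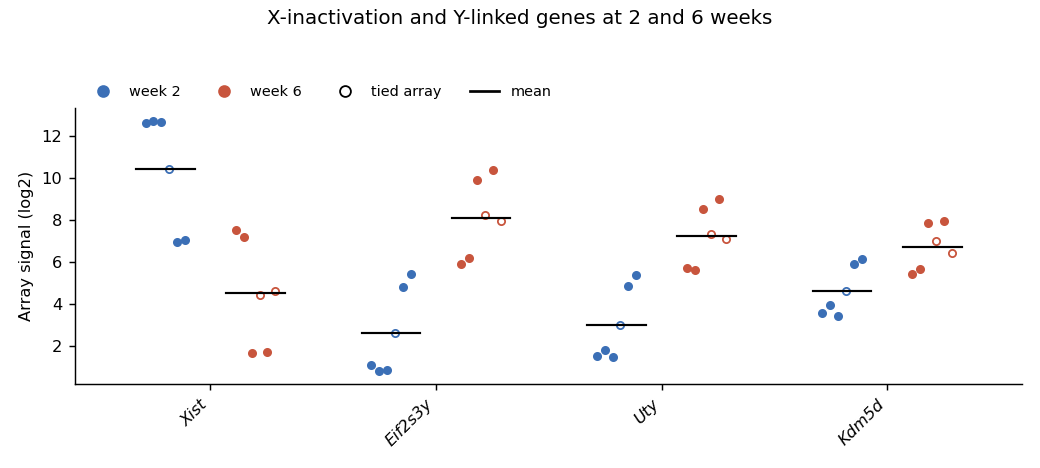
Log2 signal (vertical axis) of Xist and 3 Y-linked genes (horizontal axis) in each of the 6 week 2 arrays (blue) and the 6 week 6 arrays (red), with open circles for the 3 arrays whose values follow from others of their week and lines for the means. Each week holds 2 levels of Xist with a gap of 5.65, and both levels lie lower in week 6.

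A call required both a change of 2-fold or more and an adjusted p (Benjamini-Hochberg) of 0.05 or less in limma, fitted over all transcript clusters and all 30 arrays. By this rule 707 of 19938 genes were upregulated at week 6 (3.55%) and 61 were downregulated (0.306%). The median log2 fold change over all genes was 0.02. All 6 week 6 arrays lay above all 6 week 2 arrays in 2778 genes (13.9%) and below them in 1597 (8.01%). Among the 21789 transcript clusters with 1 symbol, 851 were higher (3.91%) and 69 lower (0.317%). Without the 3 tied arrays, 694 genes were higher and 59 lower, and each of these was also among the 707 and 61. Since the tied arrays leave the means as they are, fold changes stayed almost the same and only p-values could move. Here and in the lists below, this setting is thus no independent check of the fold changes. With the level of Xist as a further factor, a setting in which the 3 tied arrays were left out as well, the counts were 686 and 64. This factor sets high against low arrays within a week, so it cannot take up a shift of whole weeks. Scaling moved the balance, since quantile normalization gave 612 higher and 115 lower.

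**Figure D2:**
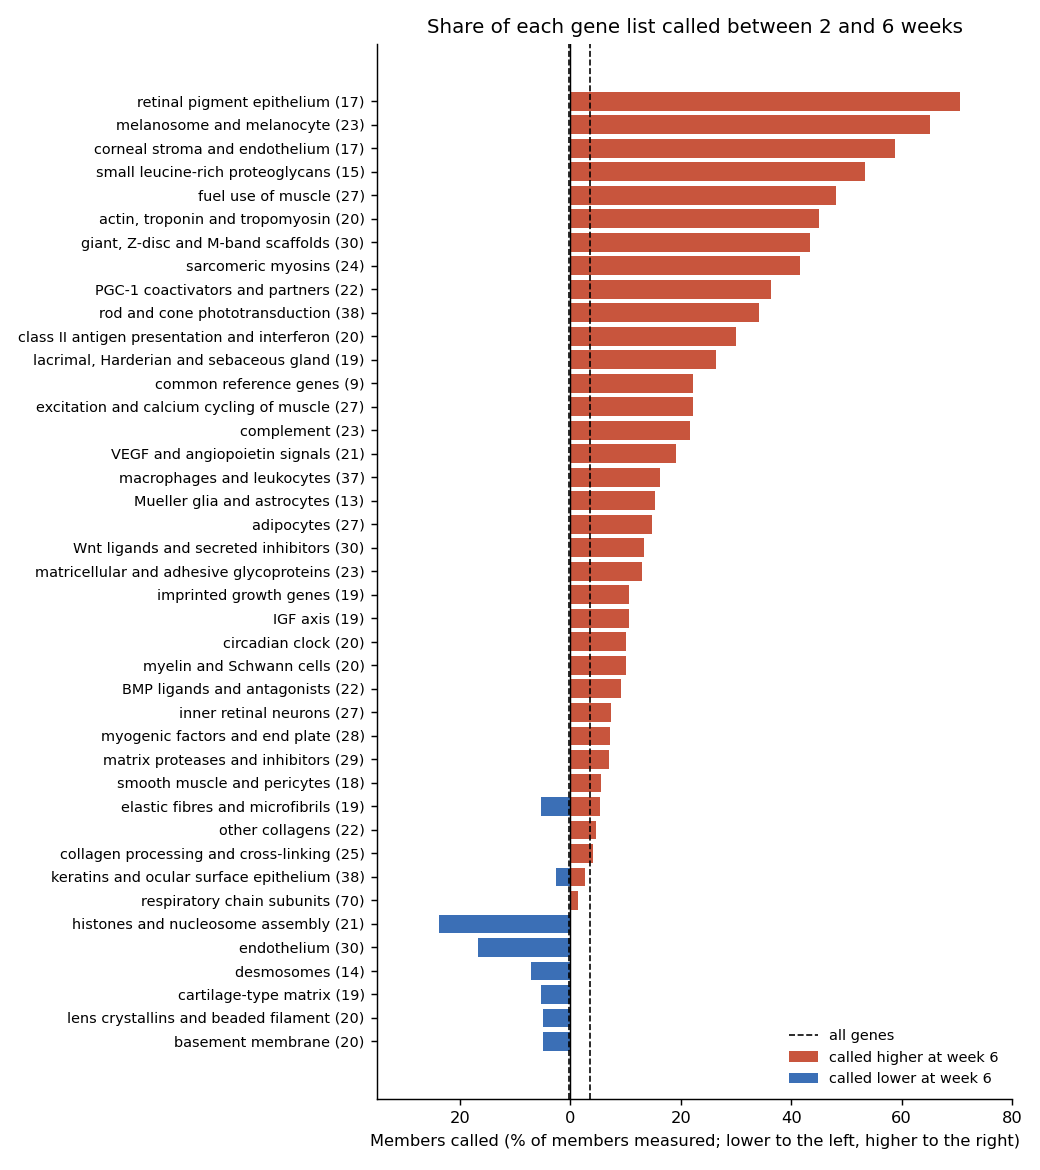
Share of the measured members of each gene list that was called higher (red, to the right) or lower (blue, to the left) at week 6, in percent, with the number measured in brackets and the shares over all genes as dashed lines (3.55% and 0.306%). Lists without a call are left out. Lists of pigment cells, corneal genes, small leucine-rich proteoglycans and muscle lead the upper side, and histones and endothelium the lower.

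Muscle genes formed the largest group of rises. Over 5 lists of the sarcomere, its scaffolds, its calcium cycle and its fuel supply, 51 of 128 measured genes were upregulated and 0 downregulated, with a median log2 fold change of 0.71. The mean signal of the 128 genes was 6.83 ± 0.376 in week 2 (SD, n = 5 untied arrays) and 7.86 ± 0.391 in week 6 (SD, n = 4 untied arrays). The highest week 2 array, replicate 5 at 7.30, stood below the lowest week 6 array, replicate 5 at 7.49. The count was 51 without the tied arrays and was 50 with the level of Xist as a factor.

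Sarcomeric myosins are the motors of muscle contraction, and each heavy chain gene marks a fibre type. Of 24 measured myosins and myosin-binding proteins, 10 were upregulated and 0 downregulated. Myh4, the heavy chain of the fastest fibres, had signals of 4.41, 6.59 and 7.84 (lowest, median, highest of 6 arrays) in week 2 and 8.67, 10.62 and 11.68 in week 6. The weeks did not overlap, and the rise was 14.5-fold (log2 3.86, SE 0.55, adjusted p = 2.06e-06). The other fast heavy chains, Myh2 and Myh1, rose 7.66-fold and 6.65-fold. Myh3, the embryonic heavy chain, went from 1.85, 6.01 and 6.82 to 8.23, 10.07 and 10.67, a rise of 21.4-fold (adjusted p = 4.00e-05). The lowest value belonged to week 2 replicate 6, with the other untied week 2 arrays between 5.95 and 6.82, and without it the log2 fold change was 3.70. Myh8, the perinatal chain, rose 3.04-fold with overlapping weeks. Myh13, the superfast heavy chain of extraocular muscle, rose 2.99-fold from a week 2 range of 4.44 to 5.18 to a week 6 range of 5.53 to 7.28. Myh15, a heavy chain of slow tonic extraocular fibres, rose 17.0-fold (log2 4.09, SE 0.91, adjusted p = 5.12e-04), and without the same week 2 array, which lay at 1.14, the log2 fold change was 3.24.

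In the troponins and the calcium pump, fast isoforms were called where the slow isoforms of the same proteins were not. Troponin C of fast muscle, Tnnc2, lay between 5.83 and 7.09 in week 2 and between 9.50 and 11.12 in week 6, a rise of 12.5-fold (SE 0.36 on the log2 scale, adjusted p = 7.96e-09). The slow and cardiac form, Tnnc1, had a log2 fold change of 0.64 (SE 0.47, adjusted p = 0.271). Both fast partners of Tnnc2 were called, with fold changes of 3.29 for Tnni2 and 4.97 for Tnnt3. Neither slow partner was called, at log2 fold changes of 0.39 for Tnni1 (adjusted p = 0.329) and 0.17 for Tnnt1 (adjusted p = 0.642). The same held for the calcium pumps, where fast Atp2a1 rose 11.6-fold from a week 2 range of 6.51 to 8.29 to a week 6 range of 10.37 to 12.04, and slow Atp2a2 had a log2 fold change of 0.15 (SE 0.09, adjusted p = 0.144). Slow myosin heavy chain Myh7 had a log2 fold change of 0.36 (SE 0.29, adjusted p = 0.323). Heavy chains did not divide in this way throughout, since Myh15 of slow tonic extraocular fibres was called at 17.0-fold. Differences between the paired isoforms were not tested, and slow isoforms without a call are given as not called rather than as unchanged.

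**Figure D3:**
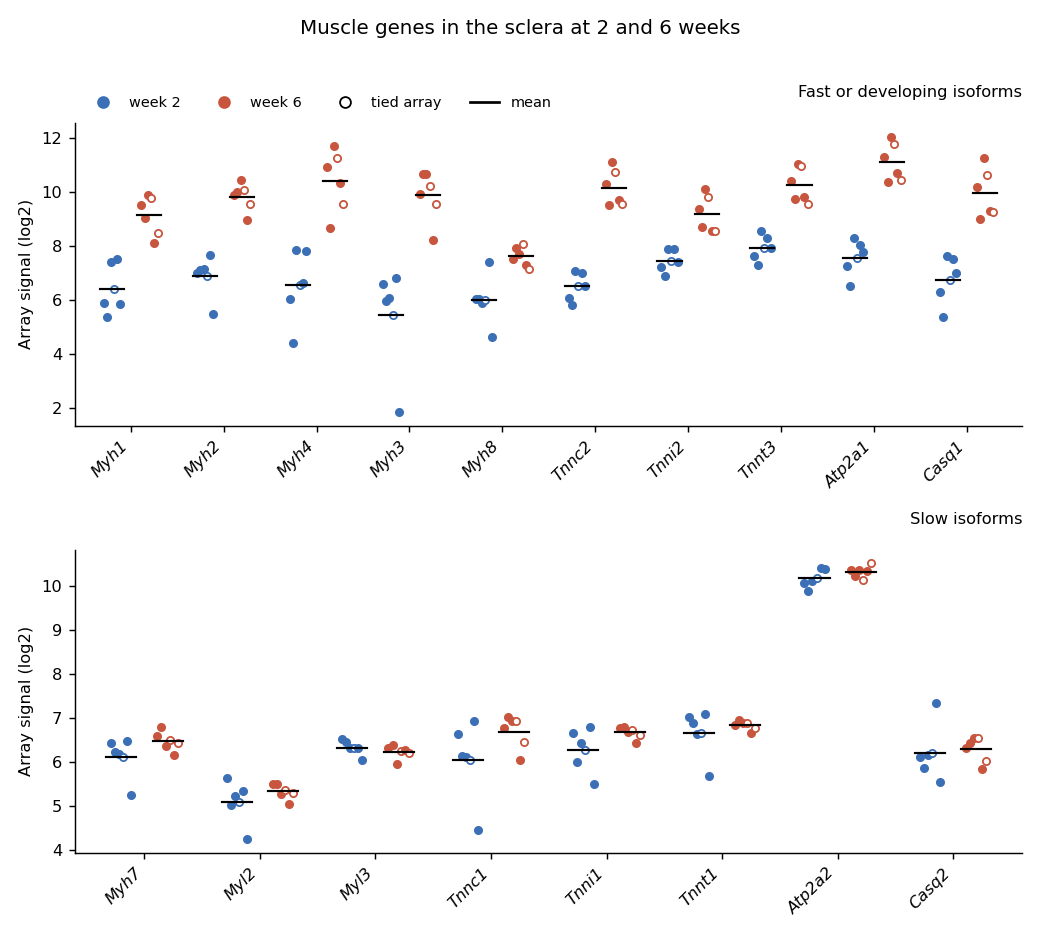
Log2 signal (vertical axis) of muscle genes (horizontal axis) in each array of week 2 (blue) and week 6 (red), with fast or developing isoforms above and slow isoforms below, open circles for the 3 tied arrays and lines for the means. Fast Tnnc2 and Atp2a1 separate fully between the weeks, whereas slow Tnnc1 and Atp2a2 overlap.

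The thin filament and the scaffolds of the sarcomere rose beside the fast myosins. Of 20 actin, troponin and tropomyosin genes, 9 were upregulated, and of 30 genes of giant, Z-disc and M-band proteins, 13. Ttn, the giant spring that spans the sarcomere from Z-disc to M-band, had signals of 6.65, 6.89 and 7.57 in week 2 and 10.38, 10.93 and 11.71 in week 6. No week 6 array came near the week 2 range, and the rise was 15.9-fold (log2 3.99, SE 0.36, adjusted p = 2.07e-09). From week 3 to week 6, the study's quantitative PCR on pooled sclerae of other mice gave Ttn a much smaller rise than its arrays did. Neb, the ruler of the thin filament, rose 10.4-fold, skeletal actin Acta1 4.81-fold and the crosslinker Actn2 5.18-fold. Klhl41, which stabilizes nebulin, rose 8.60-fold, and the Z-disc proteins Myot and Myoz1 5.66-fold and 4.95-fold. Desmin, Des, rose 2.60-fold. Tmod1, which caps the thin filament, rose 3.62-fold by its brighter transcript cluster, whereas its second cluster had a log2 fold change of -0.44.

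Calcium cycling and fuel use completed the pattern. Of 27 genes of excitation and calcium cycling, 6 were upregulated, and of 27 genes of muscle fuel use, 13. Casq1, the calcium store of fast fibres, rose 9.11-fold from a week 2 range of 5.36 to 7.64 to a week 6 range of 9.01 to 11.26. The calcium release channel Ryr1 rose 2.88-fold and parvalbumin, Pvalb, 4.56-fold with overlapping weeks. Trdn, which links the channel to its store, was represented by 19 transcript clusters, 13 of which were called, with log2 fold changes from -0.14 to 4.03. Creatine kinases rose, with log2 fold changes of 2.07 for cytosolic Ckm and 2.31 for mitochondrial Ckmt2. The glycolytic isozyme Pgam2 rose 6.14-fold, glycogen phosphorylase Pygm 3.41-fold and myoglobin, Mb, 3.12-fold.

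Few of the genes that build or innervate muscle were called. Of 28 myogenic factors and end plate genes, 2 were upregulated and 0 downregulated, a share of 7.14% beside 3.55% of all genes, and the median log2 fold change was 0.05. Myf6, the myogenic factor that persists in mature fibres, rose 2.40-fold (SE 0.42 on the log2 scale, adjusted p = 0.0142) with overlapping weeks. Eya1 rose 2.19-fold without overlap. Pax7, a marker of satellite cells, had a log2 fold change of -0.68 (SE 0.14, adjusted p = 1.68e-04), and its week 6 arrays lay below all week 2 arrays, but the change stayed under 2-fold. Without the tied arrays 1 gene of this list was called.

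Promoter sequence was set beside the muscle rises because 3 known motifs of muscle genes, the MEF2 site, the CArG box and the E-box (CANNTG), lie near many start sites. In the RefSeq windows of build GRCm38.p6, which run from 250 bases before to 50 bases after each start, 41 of the 51 muscle genes called had an entry. A MEF2 site on either strand was found in 10 of the 41 (24.4%), in 5 of 57 muscle genes not called (8.77%) and in 3.7% of all 27025 genes. The CArG box was found in 5 of the 41 (12.2%), in 5 of the 57 not called (8.77%) and in 1.81% of all genes. The E-box was common everywhere, in 85.4% of the genes called, 87.7% of those not called and 75.0% of all. TATAAA was found in 29.3%, 22.8% and 15.7%. No test was made of these shares, and a match is a run of letters, not a shown binding site. The windows of Ttn (chr2:76982498-76982797, minus strand), Myh4 (chr11:67237562-67237861, plus strand) and Pgam2 (chr11:5803747-5804046, minus strand) are printed 5′ to 3′, each for a gene with a rise of over 6-fold and a MEF2 match. Capitals mark the MEF2 site in all, and in Myh4 also the CArG box, beginning 104 bases before the start, and TATAAA on either strand, of which 1 copy begins 31 bases before the start and another overlaps the MEF2 site.
Ttn: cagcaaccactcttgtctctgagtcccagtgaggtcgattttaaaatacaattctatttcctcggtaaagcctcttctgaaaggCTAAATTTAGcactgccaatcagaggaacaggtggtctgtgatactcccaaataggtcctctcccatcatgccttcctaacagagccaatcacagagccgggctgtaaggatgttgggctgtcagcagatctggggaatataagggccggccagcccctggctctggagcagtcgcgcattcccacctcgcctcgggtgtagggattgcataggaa
Myh4: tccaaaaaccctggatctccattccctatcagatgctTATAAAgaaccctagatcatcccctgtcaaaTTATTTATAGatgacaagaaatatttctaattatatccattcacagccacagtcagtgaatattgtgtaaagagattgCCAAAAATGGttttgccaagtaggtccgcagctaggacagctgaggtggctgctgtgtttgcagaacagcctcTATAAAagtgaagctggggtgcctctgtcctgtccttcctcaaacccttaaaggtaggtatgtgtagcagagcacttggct
Pgam2: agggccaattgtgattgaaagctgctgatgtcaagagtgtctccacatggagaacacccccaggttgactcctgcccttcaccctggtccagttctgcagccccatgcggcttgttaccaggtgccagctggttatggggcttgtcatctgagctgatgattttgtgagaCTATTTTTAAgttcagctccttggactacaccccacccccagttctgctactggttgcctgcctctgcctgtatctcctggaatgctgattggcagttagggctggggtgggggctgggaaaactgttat

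The retinal pigment epithelium and the melanosome gave the list with the highest share of rises. The pigment epithelium is a single cell layer that recycles the chromophore of visual pigment and feeds the photoreceptors, and melanosomes are the organelles in which it and choroidal melanocytes make pigment. Balb/cJ mice make no melanin because their tyrosinase is inactive, but the RNA of these genes is still made. Over both lists, 27 of 40 measured genes were upregulated and 0 downregulated, with a median log2 fold change of 1.89. Their mean signal was 6.67 ± 0.456 in week 2 (SD, n = 5 untied arrays) and 8.31 ± 0.346 in week 6 (SD, n = 4 untied arrays), and the highest week 2 array at 7.25 stood below the lowest week 6 array at 7.86. The count was 27 without the tied arrays and with the level of Xist as a factor.

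Genes of the visual cycle, which turns spent all-trans retinal back into 11-cis retinal, rose together. Rpe65, its isomerase, had signals of 3.28, 4.83 and 7.02 in week 2 and 7.73, 9.21 and 10.24 in week 6. The spread within each week was wide, but the weeks did not overlap, and the rise was 21.1-fold (log2 4.40, SE 0.60, adjusted p = 1.09e-06). Lrat, which makes the retinyl ester that Rpe65 uses, rose 5.82-fold, and Rdh5, the dehydrogenase that completes the cycle, rose 5.48-fold. Rlbp1, the carrier of 11-cis retinal, rose 9.81-fold from a week 2 median of 5.58 to a week 6 median of 8.99. The retinal-binding opsins Rgr and Rrh rose 12.7-fold and 3.69-fold. Ttr, the carrier of retinol and thyroid hormone, rose 14.4-fold, and Stra6, the retinol uptake receptor, 2.24-fold. Otx2, the homeobox factor that specifies pigment epithelium, had signals of 4.80, 5.56 and 6.28 in week 2 and 7.65, 8.49 and 8.77 in week 6, a rise of 7.04-fold (adjusted p = 9.86e-09). Best1, the bestrophin of this epithelium, moved the other way, with a log2 fold change of -0.35 that was not called.

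Melanosome genes covered the whole path from the enzyme to transport. Tyr, the tyrosinase, had signals of 3.34, 4.87 and 6.36 in week 2 and 6.82, 7.57 and 8.37 in week 6, which did not overlap, and rose 6.61-fold (SE 0.40, adjusted p = 3.23e-06). Its relatives Tyrp1 and Dct rose 7.47-fold and 8.41-fold. Pmel, which forms the fibrils of the melanosome, rose 4.47-fold with overlapping weeks, and Mlana 6.02-fold without overlap. The ion and proton transporters Slc24a5, Slc45a2 and Oca2 rose 7.09-fold, 4.23-fold and 4.08-fold. Myo5a and Rab27a, which carry melanosomes along actin, rose 5.07-fold and 2.83-fold, and Mlph, the adaptor between them, had a log2 fold change of 0.72 and was not called. Mitf, the transcription factor of the lineage, rose 3.72-fold from a week 2 median of 6.42 to a week 6 median of 8.33. Sox10, which is expressed in melanocytes and glia but not in the pigment epithelium, had a log2 fold change of 0.36 (SE 0.14, adjusted p = 0.0324) and was not called.

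The hexamer CATGTG, 1 form of the E-box and the core of the motif that MITF is known to bind, was searched for after these values were seen. Of the 27 pigment genes called, 21 had a RefSeq promoter window, and 9 of those held the hexamer on either strand (42.9%). The share was 2 of 11 among the pigment genes not called (18.2%) and 15.9% over all genes of the table. The windows of Tyrp1 (chr4:80833963-80834262, plus strand), Dct (chr14:118052197-118052496, minus strand) and Rpe65 (chr3:159598931-159599230, plus strand) are printed 5′ to 3′ as members from both lists that hold it. Capitals mark the hexamer on either strand, which begins 46 bases before the start in Tyrp1, 232 and 150 bases before it in Dct, and 239 bases before it in Rpe65.
Tyrp1: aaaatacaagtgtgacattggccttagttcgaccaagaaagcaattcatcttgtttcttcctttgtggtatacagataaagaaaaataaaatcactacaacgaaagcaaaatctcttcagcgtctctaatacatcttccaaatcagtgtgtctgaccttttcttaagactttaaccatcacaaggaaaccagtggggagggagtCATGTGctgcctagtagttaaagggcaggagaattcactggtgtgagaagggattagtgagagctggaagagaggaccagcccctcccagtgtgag
Dct: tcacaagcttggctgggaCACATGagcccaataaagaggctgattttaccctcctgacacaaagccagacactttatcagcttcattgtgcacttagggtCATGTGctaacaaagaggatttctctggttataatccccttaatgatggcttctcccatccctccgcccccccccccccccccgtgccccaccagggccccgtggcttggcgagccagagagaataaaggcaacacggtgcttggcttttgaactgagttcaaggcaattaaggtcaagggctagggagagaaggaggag
Rpe65: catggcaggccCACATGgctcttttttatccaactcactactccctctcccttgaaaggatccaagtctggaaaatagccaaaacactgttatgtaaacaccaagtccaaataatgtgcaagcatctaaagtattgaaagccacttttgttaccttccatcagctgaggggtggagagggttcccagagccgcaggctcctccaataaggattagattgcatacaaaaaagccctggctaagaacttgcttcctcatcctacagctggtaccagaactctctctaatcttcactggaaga

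**Figure D4:**
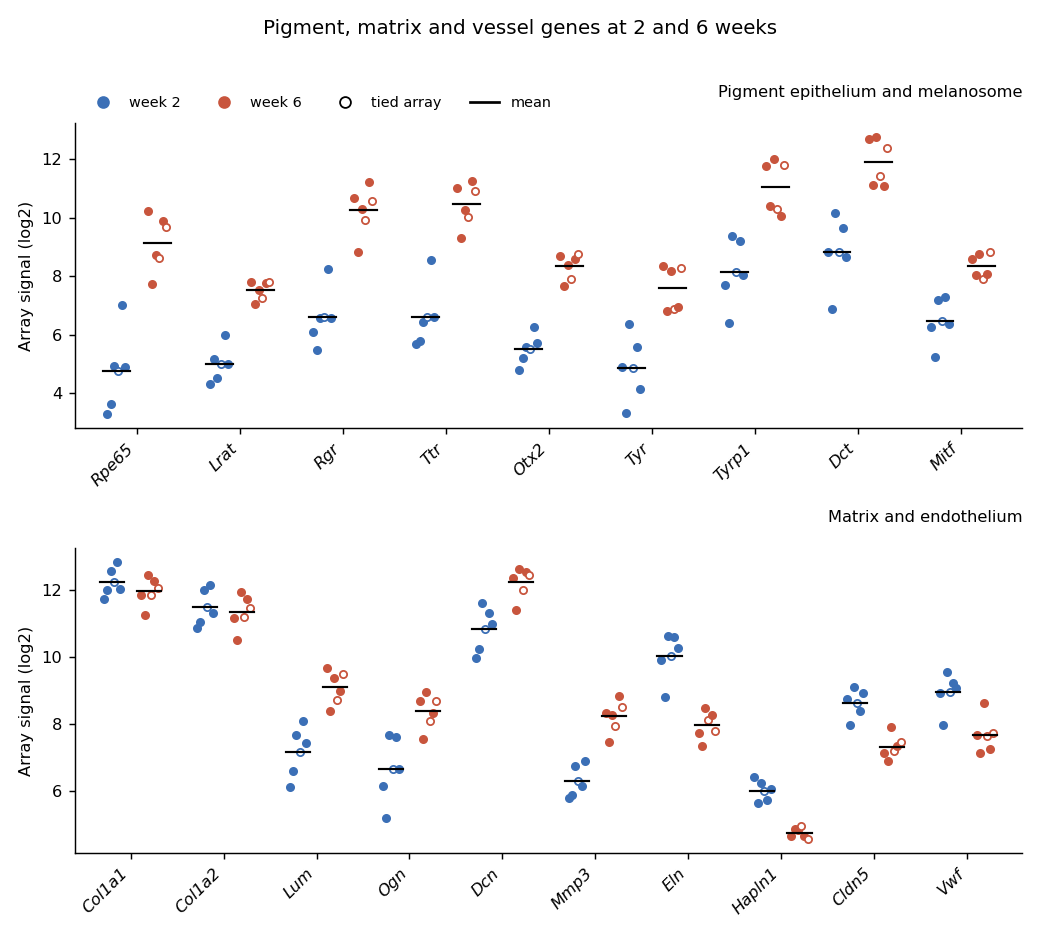
Log2 signal (vertical axis) of pigment epithelium and melanosome genes (upper panel) and of matrix and endothelial genes (lower panel) in each array of week 2 (blue) and week 6 (red), with open circles for the 3 tied arrays and lines for the means. The pigment genes shown separate between the weeks, Col1a1 and Col1a2 overlap, Lum lies higher and Eln lower in week 6.

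MicroRNA genes were measured by their precursor transcripts, and 4 of 300 were called higher and 1 lower. These shares of 1.33% and 0.333% stand beside 3.55% and 0.306% of all genes. The microRNAs below were named after their values were seen. Mir204, which is abundant in the pigment epithelium, rose 2.16-fold (SE 0.20 on the log2 scale, adjusted p = 3.83e-05). Mir211, which lies within the melanocyte gene Trpm1 and shares its seed with Mir204, had a log2 fold change of 0.38 (SE 0.14, adjusted p = 0.0238) and was not called, although Trpm1 itself rose 2.57-fold. Mir206, a microRNA of skeletal muscle, had a log2 fold change of -0.20 (adjusted p = 0.0469) beside the muscle rises described above. The mature 5p forms of the first pair and the 3p form of the last are printed from RefSeq, with bases 2 to 8, the seed, in capitals, to show the shared seed of the pair.
miR-204-5p: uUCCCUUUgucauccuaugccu
miR-211-5p: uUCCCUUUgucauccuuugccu
miR-206-3p: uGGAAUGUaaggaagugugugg

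Calls among photoreceptor genes depended on which arrays were used. Of 38 genes of rod and cone phototransduction, 13 were upregulated and 0 downregulated, with a median log2 fold change of 0.35, but only 6 were called without the 3 tied arrays and 7 with the spread of each array as a covariate. Leaving out week 2 replicate 1 or 3 gave 6 calls, week 6 replicate 6 gave 7, and week 6 replicate 1 or 5 gave 8. Abca4, the retinal transporter of photoreceptor discs that the pigment epithelium also expresses, rose 5.81-fold (SE 0.34, adjusted p = 8.48e-07). Among rod genes, Gnat1, rod transducin, had signals of 5.96, 6.97 and 8.09 in week 2 and 6.83, 8.68 and 10.07 in week 6, overlapping weeks with a rise of 3.14-fold (adjusted p = 0.0298). Sag, rod arrestin, rose 2.56-fold (adjusted p = 0.0232), and the phosphodiesterase subunits Pde6a and Pde6b 2.50-fold and 2.44-fold. Gnat1, Sag and Pde6b were not called without the tied arrays, nor without week 2 replicate 1 or 3 or week 6 replicate 5 or 6, at log2 fold changes of 1.09 to 1.55 over the arrays whose absence ended a call. Of the cone genes, transducin Gnat2 had a log2 fold change of 0.22 (adjusted p = 0.567) and the middle-wave opsin Opn1mw 0.16 (adjusted p = 0.693). Neurod1, a transcription factor of photoreceptors and amacrine cells that the study names, rose 2.94-fold without overlap. In the inner retina 2 of 27 genes were called (7.41% beside 3.55%), Snap25 of synapses and the channel Trpm1 of bipolar cells and melanocytes. The count was 1 without the tied arrays, with the level of Xist as a factor, with the spread of each array as a covariate, and when week 2 replicate 1, 3 or 4 or week 6 replicate 1, 5 or 6 was left out.

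Of 17 genes chosen for corneal stroma and corneal endothelium, 10 were upregulated, a share of 58.8% beside 3.55% of all genes, and 9 without the tied arrays. Several of them also serve the ciliary and pigment epithelia. Slc4a4, the sodium bicarbonate cotransporter, had signals of 4.88, 5.56 and 6.76 in week 2 and 7.05, 8.94 and 9.74 in week 6, a rise of 8.95-fold without overlap (adjusted p = 3.31e-08). Slc4a5 rose 4.01-fold and Slc4a11, a transporter of the corneal endothelium, 2.52-fold. Some carbonic anhydrases rose, with fold changes of 5.88 for Car3, 2.58 for Car12 and 2.13 for Car2, while Car4 and Car1 each had a log2 fold change of 0.15 (SE 0.13 and 0.14) and were not called. Car2 was not called without the tied arrays. Ptgds, which makes prostaglandin D2 in the ciliary and pigment epithelia, rose 8.90-fold. Cltrn, a partner of amino acid transporters, rose 11.9-fold and Kcnj13, the apical potassium channel of the pigment epithelium, 11.5-fold. Kcnj13 lies outside the lists and was named after its values were seen.

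In the matrix of the sclera itself, calls lay mainly among proteoglycans. Of 15 small leucine-rich proteoglycans, which sit on collagen fibrils and set their spacing, 8 were upregulated (53.3% beside 3.55% of all genes). None was downregulated, and the median log2 fold change was 1.05. Lum, lumican, had signals of 6.11, 7.29 and 8.08 in week 2 and 8.39, 9.16 and 9.65 in week 6. These did not overlap, and the rise was 3.80-fold (SE 0.30, adjusted p = 8.13e-06). Ogn rose 3.32-fold and Dcn, decorin, 2.64-fold, both with overlapping weeks. Optc, opticin, rose 3.63-fold, Epyc 2.51-fold and Omd 2.09-fold, all without overlap, and keratocan, Kera, rose 2.21-fold. Bgn, biglycan, was not called, at a log2 fold change of 0.32 (SE 0.29, adjusted p = 0.374). The count was 8 without the tied arrays, 7 with the level of Xist as a factor, 6 with the spread of each array as a covariate, and 6 to 10 when single arrays were left out.

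No fibrillar collagen was called. Of 11 measured, 0 were called, where 3.55% of all genes were called higher and 0.306% lower. A count of 0 in 11 genes is near these shares. The median log2 fold change of the 11 was -0.28. Col1a1 had signals of 11.72, 12.12 and 12.85 in week 2 and 11.26, 11.95 and 12.45 in week 6, a log2 fold change of -0.28 (SE 0.19, adjusted p = 0.228). Col1a2 and Col3a1 had log2 fold changes of -0.15 and -0.39 (SE 0.23 and 0.26). The mean signal of the 11 genes was 8.57 ± 0.341 in week 2 (SD, n = 5 untied arrays) and 8.31 ± 0.32 in week 6 (SD, n = 4 untied arrays). Among 22 other collagens only Col12a1, a collagen that coats fibrils, was called (4.55% beside 3.55% of all genes). It rose 2.85-fold with overlapping weeks. Plod2, which hydroxylates lysines for collagen crosslinks, rose 2.04-fold and was the only call among 25 genes of collagen processing (4.0%). It was not called with median centring, with array weights, with the spread of each array as a covariate, or when week 2 replicate 2 or week 6 replicate 1, 3 or 6 was left out, at log2 fold changes of 0.93 to 0.99 in the latter.

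Elastin made the largest fall of any protein-coding gene named here. Eln had signals of 8.81, 10.15 and 10.62 in week 2 and 7.34, 7.95 and 8.47 in week 6, so that every week 6 array lay below every week 2 array. The log2 fold change was -2.09 (fold change -4.26, SE 0.24, adjusted p = 1.03e-07). Among the other elastic fibre genes Fbln1, fibulin 1, rose 2.20-fold, and Mfap4 and Fbn2 had log2 fold changes of 0.38 and 0.28 and were not called. Hapln1, the link protein that ties aggrecan to hyaluronan, fell by 1.26 on the log2 scale (adjusted p = 2.58e-09) and Lama5, a laminin chain of basement membranes, fell by 1.02. Of 23 matricellular and adhesive glycoproteins 3 were upregulated, where 3.55% of all genes were. These were Dpt, Ecm1 and Thbs2, which bind collagen or other matrix and rose 3.00-fold, 2.04-fold and 2.00-fold, the last just past the threshold and with overlapping weeks. The count was 3 without the tied arrays and 1 with the level of Xist as a factor, with array spread as a covariate, with median centring and with quantile normalization. It was 1 without week 2 replicate 2 or week 6 replicate 3 and 5 without week 2 replicate 5. Of 29 matrix proteases and inhibitors, 2 were upregulated (6.90% beside 3.55%), and the count was 4 without week 2 replicate 3 or 5 and 5 without week 6 replicate 2. Those called were stromelysin Mmp3 by 3.82-fold (week 2 range 5.79 to 6.89, week 6 range 7.47 to 8.84) and the aggrecanase Adamts5 by 2.91-fold. Gelatinase Mmp2 had a log2 fold change of 0.55 and was not called.

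Several secreted inhibitors of Wnt signalling rose. Of 30 Wnt ligands and secreted modulators, 4 were upregulated and 0 downregulated, a share of 13.3% beside 3.55% of all genes. Sfrp4, a decoy receptor, had signals of 5.56, 6.40 and 6.91 in week 2 and 7.50, 8.34 and 9.20 in week 6, a rise of 4.16-fold without overlap (adjusted p = 1.93e-05). Sfrp2 rose 3.45-fold with overlapping weeks, and Wif1, another secreted inhibitor, 2.19-fold. Rspo2, which enhances the signal, rose 2.70-fold. In the BMP family 2 of 22 genes were upregulated (9.09% beside 3.55% of all genes), and 1 with the spread of each array as a covariate. The ligand Bmp2 rose 2.80-fold and the antagonist Sostdc1 2.16-fold.

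Of the insulin-like growth factors, Igf1 rose 2.25-fold (SE 0.25, adjusted p = 3.13e-04), and the insulin receptor Insr rose 2.11-fold by its brighter transcript cluster and had a log2 fold change of 0.40 in the other. Igf2, the fetal growth factor, had signals of 8.05, 8.69 and 9.96 in week 2 and 7.48, 7.87 and 8.39 in week 6, a log2 fold change of -0.85 (SE 0.26, adjusted p = 7.38e-03) that did not reach 2-fold. None of 22 genes of TGF-beta signalling was called in the limma fit, where 3.55% of all genes were called higher and 0.306% lower. In some of the 22, adjusted p was 0.05 or less with a smaller fold. Tgfb2 had a log2 fold change of 0.60 (SE 0.17, adjusted p = 4.93e-03). The largest was that of Skil, a repressor of the pathway, at 0.81.

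Some histone genes fell, and no gene of the cell cycle list was called in the limma fit. Of 21 histone and nucleosome assembly genes, 5 were downregulated, a share of 23.8% beside 0.306% of all genes, and 0 were upregulated. H4c4 had signals of 9.15, 9.67 and 9.94 in week 2 and 7.91, 8.01 and 8.17 in week 6, a log2 fold change of -1.64 (SE 0.15, adjusted p = 1.61e-09). H4c6, H4f16, H2bc14 and H2ac4 had log2 fold changes of -1.72, -1.42, -1.34 and -1.16, and none of the 5 overlapped between the weeks. H2bc4, another histone 2B gene, had a log2 fold change of 0.83 in the other direction and was not called. Replication-dependent histone genes are near copies of each other, so probes can be shared between members of a family. Of 50 cell cycle and DNA replication genes, 0 were called, where 3.55% of all genes were called higher and 0.306% lower. A count of 0 in 50 genes is not far from these shares. The median log2 fold change of the list was 0.02. The largest log2 fold change was that of Cenpe, a kinesin of the kinetochore, at 0.72 (SE 0.19, adjusted p = 1.96e-03).

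Small structural RNAs made 4 of the 12 largest falls among genes called without overlap between the weeks. Predicted or clone names and olfactory, vomeronasal and immunoglobulin segment genes were passed over. Snord33, which guides methylation of ribosomal RNA, had signals of 7.56, 8.13 and 8.65 in week 2 and 5.27, 5.70 and 6.36 in week 6, a log2 fold change of -2.37 (SE 0.18, adjusted p = 7.74e-11). The 5S ribosomal RNA copy n-R5s136, the vault RNA Vaultrc5 and the U3 RNA Rnu3a had log2 fold changes of -2.40, -1.98 and -1.60, all without overlap. The protein-coding genes among the 12 other than Eln and the histones were Cytl1, a secreted cytokine-like protein, Atp2a3, the calcium pump of endothelial and blood cells, Mrgprh, an orphan receptor of the Mas family, Spon2, a secreted matrix protein, and the small heat shock protein Hspb1. Their log2 fold changes were -1.87, -1.82, -1.78, -1.57 and -1.49. Transcript clusters without a gene symbol held more of the falls than the named genes did, with 490 lower and 812 higher of 12146.

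Some endothelial genes fell. Of 30 measured, 5 were downregulated, a share of 16.7% beside 0.306% of all genes, and 0 were upregulated, with a median log2 fold change of -0.58. The count was 5 without the tied arrays, 6 with the level of Xist as a factor, 7 with quantile normalization, and 4 to 8 when single arrays were left out, with 8 without week 6 replicate 3. Cldn5, the claudin of tight endothelial junctions, had signals of 7.95, 8.68 and 9.10 in week 2 and 6.89, 7.25 and 7.89 in week 6, a log2 fold change of -1.31 (SE 0.22, adjusted p = 1.90e-05). The gap junction proteins of arterial endothelium, Gja5 and Gja4, had log2 fold changes of -1.25 and -1.21, von Willebrand factor Vwf had -1.28 and the adhesion molecule Esam -1.03, and all 4 were called. The weeks overlapped in Gja5, Vwf and Esam. Of the 30 genes, only 2, Cldn5 and Gja4, did not overlap on the lower side (8.01% of all genes did not). On the higher side 2 did not (13.9% of all genes). Among general endothelial markers, Pecam1 and Cdh5 had log2 fold changes of -0.77 and -0.79 (SE 0.29 and 0.31), and Kdr, the main VEGF receptor, had 0.64 (SE 0.33). None of these was called. Acta2, the actin of vascular smooth muscle, was just short of the threshold at -0.99 (SE 0.37, adjusted p = 0.0284). On the side of the signals, Angpt1, the ligand of Tek made by pericytes, rose 3.07-fold and Hif1a, the oxygen-sensing transcription factor, 2.85-fold, both without overlap. Vegfa had a log2 fold change of 0.44 and was not called.

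Some genes of macrophages and of antigen presentation rose. Of 37 leukocyte genes, 6 were upregulated (16.2% beside 3.55%) and 0 downregulated, with a median log2 fold change of 0.12. Of the 37, 14 did not overlap on the higher side (13.9% of all genes did not) and 2 on the lower side (8.01%). Ptprc, the CD45 antigen of all leukocytes, had signals of 4.89, 5.10 and 5.40 in week 2 and 6.25, 6.41 and 6.60 in week 6. This was a tight change of 2.49-fold (SE 0.09, adjusted p = 3.86e-11). Lyz2, the lysozyme of myeloid cells, rose 4.25-fold, Mrc1 and Cd163, scavenger receptors of resident macrophages, 3.02-fold and 2.14-fold, and Csf1r, the receptor they depend on, 2.05-fold. The 2 genes without overlap on the lower side were the T cell markers Cd3e, with week 2 signals of 6.61 to 7.02 and week 6 signals of 6.15 to 6.56, and Cd8a, with 5.88 to 6.52 and 5.49 to 5.83. Each had a log2 fold change of -0.50 and was not called. Of 20 class II and interferon genes, 6 were upregulated (30.0%) and the median log2 fold change was 0.31. Among them, the class II genes H2-Ea, H2-Aa and Cd74 rose 3.87-fold, 2.75-fold and 2.28-fold, the latter pair with overlapping weeks. The interferon-induced Ifit1 and Ifit3 rose 4.76-fold and 2.99-fold. Not called were H2-Ab1 (6.17 to 6.84 in week 2, 6.11 to 7.53 in week 6), H2-Eb1, H2-DMa, Ciita and H2-Oa. H2-Oa had the lowest log2 fold change of the list, -0.36. Of 23 complement genes, 5 were upregulated, led by C7, C2 and C4b at 2.79-fold, 2.73-fold and 2.49-fold, and the count was 3 with the spread of each array as a covariate and without week 2 replicate 1 or 2.

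Surface epithelium and lens changed in single genes. Of 38 keratin and ocular surface genes, Muc5ac, the gel-forming mucin of goblet cells, rose 2.81-fold, and Krt6b, a keratin of stratified and wounded epithelium, fell by 1.14 on the log2 scale with overlapping weeks. Krt5, the basal keratin, had a log2 fold change of -0.40 (SE 0.24, adjusted p = 0.173). Evpl, a protein of the cornified envelope, fell by 1.04. Cryaa, the lens alpha crystallin, fell by 1.92 (SE 0.78, adjusted p = 0.0438), but 1 array, week 2 replicate 5, lay at 11.27, with the other week 2 arrays between 6.68 and 8.15. Without that array the log2 fold change was -1.25 and was not called, nor was it called without the tied arrays or without week 2 replicate 2 or 4 or week 6 replicate 1, 2, 4, 5 or 6. Of 19 gland genes 5 rose, among them lactoferrin, Ltf, of the lacrimal gland at 2.64-fold. Bhlhe41, a repressor in the circadian clock, rose 6.05-fold (adjusted p = 7.12e-10) and Nr1d1, another, 2.12-fold, while 18 of the 20 clock genes were not called. No source used here gives the hour of dissection.

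The study followed Ppargc1a, the coactivator that raises mitochondrial number, and named partners of it. Of 28 genes it names, 11 were upregulated and 0 downregulated. The study chose them on these samples, so their count is no independent evidence. Ppargc1a had signals of 4.73, 5.28 and 5.72 in week 2 and 6.74, 7.18 and 7.71 in week 6, a rise of 3.92-fold (SE 0.18, adjusted p = 2.09e-09). Its other transcript cluster, on the same arrays, was called too. The study's quantitative PCR on pooled sclerae of other mice gave Ppargc1a lower fold changes than its arrays did. Between week 2 and the next age sampled, both methods gave a rise. Between that age and week 6, the study could not establish the rise by quantitative PCR. In the wider list of 22 PGC-1 coactivators, partners and targets 8 rose. They included Tfam, which packages mitochondrial DNA and activates its transcription, at 2.23-fold and malic enzyme Me1 at 4.24-fold. Cytochrome c, Cycs, rose 2.15-fold and Hexim1, an inhibitor of transcript elongation, 2.20-fold. Ppargc1b had a log2 fold change of 0.18 (adjusted p = 0.312). Of 70 respiratory chain subunits, 1 was called higher (1.43% beside 3.55% of all genes), Ndufs1 of complex I at 2.35-fold. The other 69 were not called, and the median log2 fold change of the 70 was 0.30. Among common reference genes Pgk1 and B2m rose 2.04-fold and 2.09-fold, and with quantile normalization, with the spread of each array as a covariate or without week 2 replicate 1 or 2 neither was called. Pgk1 was not called without week 6 replicate 1 or 4 either.

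Further calls close to a 2-fold change were lost when single arrays were left out. With 1 such array the log2 fold change was 0.97 for Kera (without week 2 replicate 6), 0.99 for Wif1 (without week 6 replicate 6), and 0.94 for Cycs and 0.99 for Insr (without week 2 replicate 2). Omd was at 0.96 to 0.97 without week 2 replicate 1 or week 6 replicate 6. Car2 was at 0.95 to 0.99 without week 2 replicate 1 or 3 or week 6 replicate 1. Csf1r was at 0.97 to 0.99 without week 2 replicate 2 or 6 or week 6 replicate 3 or 5. Ecm1 was at 0.93 to 0.98 without week 2 replicate 2 or week 6 replicate 3, and Thbs2 at 0.83 to 0.98 without week 2 replicate 1, 2 or 6 or week 6 replicate 1, 3, 5 or 6. Among the falls, Lama5 was at -0.99 to -0.98 without week 2 replicate 1 or 5 or week 6 replicate 2 or 4. Evpl was at -0.98 to -0.95 without week 2 replicate 1 or 6 or week 6 replicate 3, and Esam at -0.94 to -0.90 without week 2 replicate 3 or 6 or week 6 replicate 2 or 5.

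Levels at the other ages were set beside these differences, in contrasts that share arrays with the comparison of week 6 and week 2. Each week held other mice, and a shift of whole weeks and a change with age cannot be told apart in these steps either. For the 51 muscle genes called, the median log2 difference was -0.23 from week 2 to week 3 and 2.16 from week 3 to week 6, and 0 and 49 of them were called higher in those steps, in which 2.89% and 1.94% of all genes were. For the 27 pigment genes it was 1.90 from week 2 to week 3 and 0.51 from week 3 to week 6, with 26 and 5 called higher. From week 6 to week 8 the pigment genes had a median of -1.02, with 14 called lower (1.14% of all genes were), and the muscle genes 0.14, with 3 called higher (0.231% of all genes were) and 1 lower. Ttn went from a mean of 6.99 in week 2 to 6.29 in week 3 and 10.98 in week 6. Rpe65 went from 4.75 to 7.52 and 9.15, and then to 6.71 in week 8. Eln had means of 10.04 in week 2 and 11.06 in week 3, and fell by 3.11 on the log2 scale from week 3 to week 6. Over all 707 genes called higher, 177 were called from week 2 to week 3 and 235 from week 3 to week 6, and 163 were called lower from week 6 to week 8. Neither group was low from the start, as the muscle lists had a mean signal of 8.34 in week 1 and the pigment lists one of 8.82, above their week 6 means.

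**Figure D5:**
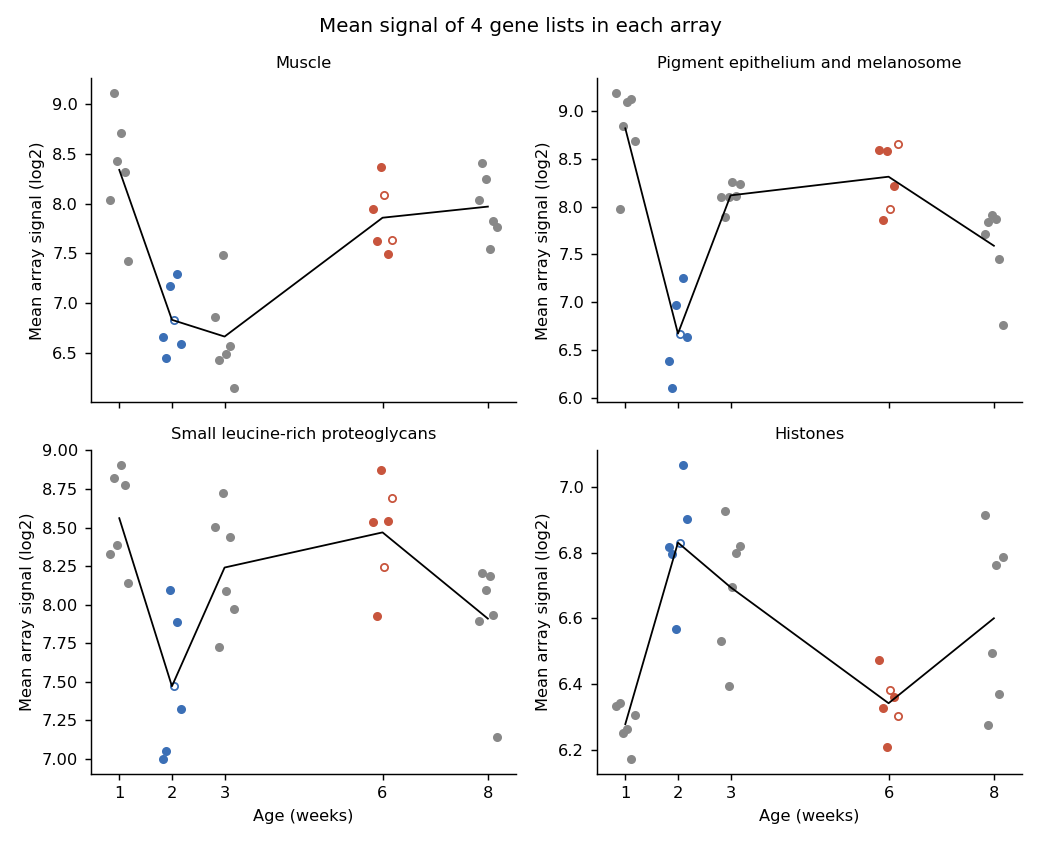
Mean log2 signal (vertical axis) of 4 gene lists in each array against age in weeks (horizontal axis), with week 2 in blue, week 6 in red, the other ages in grey, open circles for the 3 tied arrays and a line through the means. Muscle genes are higher in week 6 than in week 3, pigment genes are higher in week 3 than in week 2, and histones are lower in week 6 than in week 2.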

How the data were processed

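Total RNA of single mouse sclerae was hybridized to the Mouse Gene 1.0 ST array, 6 arrays for each of 5 weeks. The deposited values are log2 signals per transcript cluster, which the authors background-corrected, normalized and summarised in Partek 6.5. The methods name RMA followed by batch removal with scan date as a factor, and the processing notes name GCRMA. Whether the deposited values precede or follow batch removal, and the scan dates, are not given in the sources used here. Such steps can tie arrays of a week to each other and can shift whole weeks.

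The values were used as deposited. Of 35556 transcript clusters, 21789 carried 1 gene symbol, 1621 several and 12146 none. They stood for 19938 genes, with the brightest cluster used for the 999 genes that had several. All 30 arrays were fitted together in limma 3.58.1 (R 4.3.3) with week as the only factor, and p-values were adjusted over all transcript clusters by the Benjamini-Hochberg method. Calls needed a fold change of 2 and an adjusted p of 0.05. SDs leave out the 3 tied arrays. Summaries were made in Python 3.11.15 and pandas 2.3.3. The fit was tested on simulated data. The number of arrays limits the precision.

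Named genes were the 12 largest rises and falls whose weeks did not overlap, genes the study names, and in each of 48 lists up to 6 called members, or the member with the largest change, with others that complete a family. Members and lists were chosen with earlier results of these data known. Alternatives covered the samples in the fit, replicate block, array weights, centring, quantile normalization, a filter on low signal, the features adjusted over, array spread, moderation, the fold threshold, the cluster standing for a gene and leaving out arrays. Those on the tied arrays and on Xist were chosen after seeing the data. No list was given a set test.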

Additional observations from a re-analysis of the deposited data

Results flagged for a closer look

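Single arrays stood apart from the others of their week in 11 of 400 gene and week groups examined by Dixon's ratio, where chance alone sets about 1 in 20 apart. Week 2 was examined over its 5 untied arrays and week 6 over all 6. Week 2 replicate 6 was low in 5 muscle genes. In it Myh3 lay at 1.85, Myh15 at 1.14, Myh7 at 5.26, Mb at 6.70 and Pax7 at 6.24. The other untied week 2 arrays lay at 5.95 or above in Myh3, at 6.18 or above in Myh15 and at 8.31 or above in Mb.

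The rest were spread over other arrays. Acta2 was low at 9.50 in week 2 replicate 2, against 10.83 to 11.32 in the others, and Hspb1 was low at 9.58 in week 2 replicate 3. Ppargc1b was low at 6.48 in week 2 replicate 1, and Sostdc1 was high at 6.78 in week 2 replicate 5. In week 6, Cd74 was low at 6.41 in replicate 2, against 7.29 to 7.74 in the others, and Mrgprh was high at 5.85 in replicate 3.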

How the results depend on the processing

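Quantile normalization raised the genes called lower from 61 to 115 and the transcript clusters with 1 symbol called lower from 69 to 126. With no threshold on the fold, 5467 genes were higher and 4060 lower (6166 and 4368 transcript clusters). Leaving out 1 array at a time gave 607 to 802 genes higher and 53 to 76 lower, and 2778 to 3298 and 1597 to 2064 genes without overlap. Median centring gave 590 and 79, array spread as a covariate 532 and 67, and array weights 707 and 65, in which week 2 replicate 4 has no residual. The replicate number as a block gave 707 and 60 genes. For arrays of the same number, deviations from the week's mean correlated between -0.24 and 0.42 over all transcript clusters. The value for week 2 replicate 4 rests on deviations of at most 8e-05. The numbers thus gave no sign of pairing the samples. Among 200 named genes under 25 alternatives, 3 of 4969 values changed sign: Tnnt1 (-0.023 without week 2 replicate 6, range over arrays left out -0.023 to 0.26), Col1a2 (0.019 without week 6 replicate 2, range -0.27 to 0.019) and Tmod1 (-0.44 by its dimmer transcript cluster). For 26 genes the call was lost under at least 1 alternative. The cause was not tested. Calls were fewer among dim genes, since of the 6646 dimmest genes 63 were higher and 11 lower, against 346 and 40 of the brightest. The part of signal near background in this was not tested.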

Other observations

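Further cell types of the orbit gave single rises. Of 27 adipocyte genes 4 were upregulated (14.8% beside 3.55% of all genes), and the median log2 fold change was 0.08. The 4 were Lpl, Cd36, Scd1 and Car3, and Lpl stands also in the list of muscle fuel use, Scd1 in that of gland genes and Car3 in that of corneal genes. Lpl, the lipase that frees fatty acids from lipoproteins, had signals of 5.76, 6.89 and 7.49 in week 2 and 7.92, 8.32 and 8.83 in week 6, a rise of 2.91-fold without overlap (adjusted p = 1.65e-05). Cd36, the fatty acid transporter that muscle and macrophages also use, rose 2.52-fold with overlapping weeks. Cidec, a protein of the lipid droplet, went the other way, from 5.92 to 6.52 in week 2 to 5.30 to 5.66 in week 6, at a log2 fold change of -0.64 that was not called. The adipokines Adipoq and Lep had log2 fold changes of -0.16 and 0.19 and were not called. In the list of myelin and Schwann cells 2 of 20 genes were upregulated, Cdh19, a cadherin of the neural crest lineage, by 2.55-fold and S100b, a calcium-binding protein of glia, by 2.21-fold. Beside lactoferrin, the gland genes that rose were Scgb2b2, a secretoglobin, by 2.29-fold, salivary amylase Amy1 by 2.11-fold, the desaturase Scd1 by 2.38-fold and Lcn2 by 2.00-fold. The call of Lcn2 was lost without any 1 of 6 arrays, week 2 replicates 1, 2 and 5 and week 6 replicates 1, 5 and 6, at log2 fold changes of 0.77 to 1.00. Car14, a carbonic anhydrase of Mueller glia and pigment epithelium, rose 4.61-fold from a week 2 range of 5.17 to 6.30 to a week 6 range of 7.60 to 8.27.

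Vascular smooth muscle and imprinted genes moved in smaller steps. Notch3, the receptor of mural cells, had signals of 9.09, 9.39 and 9.55 in week 2 and 8.33, 8.38 and 8.62 in week 6. This difference of -0.93 (SE 0.09, adjusted p = 6.89e-09) separated the weeks but was under 2-fold. Of 19 imprinted growth genes 2 were upregulated (10.5% beside 3.55% of all genes), Dcn and Sgce, a sarcoglycan, the latter by 2.34-fold. Ndn had a log2 fold change of 0.89 without overlap and was not called. Of 28 immediate early genes 0 were called in the limma fit, where 3.55% of all genes were called higher and 0.306% lower. The count was 1 without week 2 replicate 3 or week 6 replicate 4 or 5. The largest difference was that of Nr4a3 at 0.93 (SE 0.20, adjusted p = 4.78e-04).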
